A study of Mus musculus with 2 samples.

Results

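The genes described here are 7 ion channels of the retinal pigment epithelium (RPE), out of 32285 genes counted in single cells of embryonic mouse eye cups. They are the potassium channels *Kcnq5*, *Kcnq3* and *Kcnj13*, the chloride channels *Best1* and *Clcn2*, and the cation channels *Trpm1* and *Trpm3* of the transient receptor potential (TRP) melastatin family. The members were listed by symbol and were chosen by their UMIs in these cells, across cell classes and in both genotypes, in an earlier analysis of the same libraries. Their levels and ratios are therefore a description, and no test was made on them.

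The study asked how a C-terminal variant of MYRF, a membrane-bound transcription factor, changes the developing eye. Cells were taken at E17.5 from *Myrf humWT/humWT* and from *Myrf humdG/humdG* mice, and each genotype is 1 library, pooled from 3 eye cups according to the sample titles, whereas the methods of the study speak of both eyes of each mouse. In both genotypes the last exon of mouse *Myrf* is replaced by the homologous human exon, so the controls carry a humanized allele too. The humdG allele, made on the humWT allele in mice derived from C57BL/6J eggs, models a familial splice-site variant of human nanophthalmos, an inherited disorder of small eyes, and carries the C-terminal frameshift to which that variant leads. The sample protocol speaks of other genotypes (Myrf fl/fl with and without Rx>cre) and of eyes with the cornea removed, whereas the methods of the study leave the cornea on, so the dissection of these libraries is not certain. The humWT library held 129135207 unique molecular identifiers (UMIs, each 1 captured transcript) in 17421 barcodes and the humdG library 114319529 UMIs in 19565 barcodes. The study gives a smaller cell count for each genotype than these barcodes. The filters used here left 16166 and 18172 cells, with medians of 3785 and 2625 UMIs, and 102 barcode sequences occurred in both libraries.

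The RPE is a sheet of pigmented cells between the photoreceptors and the choroid, joined by tight junctions. It moves salt and water from the retinal side to the choroidal side, and the potassium and chloride channels of its apical and basolateral membranes carry the ions that this transport recycles. *Kcnj13* encodes Kir7.1, an inward rectifier of the apical membrane beside the sodium pump. *Best1* and *Clcn2* encode bestrophin-1 and ClC-2, which pass chloride. *Kcnq5* and *Kcnq3* encode subunits of the slow, non-inactivating M-type potassium current. *Trpm1*, also called melastatin and known from melanocytes, encodes the channel that opens in ON-bipolar cells of the retina, and *Trpm3* encodes a calcium-permeable channel opened by heat and steroids.

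*Trpm1* and *Trpm3* are also host genes of a pair of related microRNAs known from the RPE, and these sequences are shown because they are what the loci of the paired channels share. The gene of miR-211 lies in intron 6 of Trpm1-201 (GRCm38.p6, mature strand chr7:64205831-64205852, plus strand) and that of miR-204 in intron 6 of Trpm3-218 (chr19:22750610-22750631, plus strand). Both sequences are from RefSeq and are written 5′ to 3′, with the seed, bases 2 to 8, in capitals.
mmu-miR-211-5p: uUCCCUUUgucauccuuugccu
mmu-miR-204-5p: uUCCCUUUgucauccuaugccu
The seed UCCCUUU is the same in both, 21 of 22 positions are identical, and the remaining position differs as U17A, with miR-211-5p written first and positions counted from 1 at the 5′ end. The hairpin of miR-211 lies in an intron of 8 of the 13 protein-coding transcripts of *Trpm1*, and that of miR-204 in an intron of 15 of the 17 of *Trpm3*. Neither microRNA gene is among the counted genes, so their levels were not measured here.

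The upstream sequences of *Kcnj13* and *Trpm1* are shown because these members had the most similar pattern over cell classes, as given below. Each is the 250 bases before a RefSeq start site on GRCm38.p6, read 5′ to 3′ along the gene. Capitals mark matches to CACGTG or CATGTG, letters bound by the pigment cell factor MITF, and to TAATCC, letters bound by OTX2 and CRX, on either strand.
Kcnj13, chr1:87394730-87394979, minus strand: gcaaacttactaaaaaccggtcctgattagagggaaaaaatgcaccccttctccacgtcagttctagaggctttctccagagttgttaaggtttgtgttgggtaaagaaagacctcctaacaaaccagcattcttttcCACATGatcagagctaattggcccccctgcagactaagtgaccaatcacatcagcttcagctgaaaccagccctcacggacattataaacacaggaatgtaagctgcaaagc
Trpm1, start site 1, chr7:64153585-64153834, plus strand: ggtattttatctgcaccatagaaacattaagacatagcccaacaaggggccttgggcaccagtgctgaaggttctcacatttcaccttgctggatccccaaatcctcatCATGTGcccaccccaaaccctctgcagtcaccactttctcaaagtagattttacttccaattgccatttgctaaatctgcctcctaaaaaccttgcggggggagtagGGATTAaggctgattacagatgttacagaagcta
Trpm1, start site 2, chr7:64185209-64185458, plus strand: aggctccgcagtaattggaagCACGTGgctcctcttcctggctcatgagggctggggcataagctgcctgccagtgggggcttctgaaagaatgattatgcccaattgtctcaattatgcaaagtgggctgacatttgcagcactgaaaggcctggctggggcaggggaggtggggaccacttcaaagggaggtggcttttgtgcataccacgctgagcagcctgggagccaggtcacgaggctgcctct
The *Kcnj13* window held CATGTG, read as CACATG on the printed strand, 112 bases before the start site. The window at the upstream start site of *Trpm1* held CATGTG 141 bases and TAATCC, read as GGATTA, 34 bases before it, and the window at the downstream start site held CACGTG 229 bases before it. Of 32851 such windows over all genes, 6.02% held CACGTG, 12.3% CATGTG and 6.25% TAATCC, so each match is common. The letters CTGGCAC or CTGGTAC, known to be bound by MYRF, were in 5.93% of all windows and in none of the 9 windows searched, which belong to the members other than *Kcnq3*. Among the other members, only the *Best1* window held any of these letters, TAATCC at 227 bases before its start site.

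The members differ widely in how much genome they span. *Trpm3* (ENSMUSG00000052387, chr19:22139046-22995410, plus strand) spans 856 kb with 25 exons in Trpm3-218. *Kcnq5* (ENSMUSG00000028033, chr1:21398403-21961942, minus strand) spans 564 kb with 15 exons, and *Kcnq3* (ENSMUSG00000056258, chr15:65986387-66286642, minus strand) spans 300.3 kb, also with 15. *Trpm1* (ENSMUSG00000030523, chr7:64153835-64269775, plus strand) spans 116 kb with 27 exons. The remaining members are short. *Best1* (ENSMUSG00000037418, chr19:9985174-10001633, minus strand) spans 16.5 kb with 12 exons and lies 207 kb from *Myrf* on the same chromosome. *Clcn2* (ENSMUSG00000022843, chr16:20702964-20717746, minus strand) spans 14.8 kb with 24 exons, and *Kcnj13* (ENSMUSG00000079436, chr1:87386363-87394729, minus strand) spans 8.37 kb with 3. Positions are those of GRCm38, the assembly called mm10 in the submitters' processing notes.

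Cells were clustered over both libraries, and 15 classes were named from marker genes. The RPE-like class held 549 cells of humWT (4323704 UMIs, median 3936 per cell) and 387 of humdG (2440981 UMIs, median 2618). Its cells carried RPE and pigment genes in both libraries, with *Ttr*, a carrier of thyroid hormone and retinol-binding protein, at 3914 and 2909 CPM (UMIs of the gene per 1000000 UMIs of the class), *Pmel*, the melanosome fibre protein, at 6335 and 7737 CPM, and *Rlbp1*, a retinoid-binding protein, at 545 and 503 CPM. Of the other RPE markers, *Rpe65* was near 0, at 0.694 and 1.23 CPM, as was *Lrat*, at 0.231 and 1.64 CPM. *Rdh5* was at 745 and 815 CPM and *Rgr* at 401 and 538 CPM. *Myrf* was at 284 CPM in humWT and 199 CPM in humdG RPE-like cells, which held 56.9% and 56.8% of all its UMIs. The alleles differ by a small change in the last exon that gene counts do not show, so these counts do not check the genotype labels. Whether the 3′ untranslated region is mouse or human is described in different ways in the study, and 3′ tags placed on the mouse genome could depend on it.

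Markers of other classes were found in RPE-like cells at levels below those in their own class, and some of them differed between the libraries. The 8 mesenchyme markers, all present, summed to 2603 CPM in humWT and 1177 CPM in humdG RPE-like cells (31337 and 26919 CPM in mesenchyme-like cells). No mesenchyme-like cluster had a mesenchyme marker among its 10 leading genes, and 1 of them had a pericyte marker there, *Rgs5*. The 10 muscle markers summed to 683 and 221 CPM in RPE-like cells, with *Pax7* at 0 in humdG. Retinal markers went the other way, the 9 of retinal progenitors summing to 871 and 1354 CPM and the 8 neurogenic ones to 172 and 346 CPM, all present. The 4 melanocyte markers that are not RPE markers differed little, at 237 and 244 CPM (1349 and 1617 CPM in melanocyte-like cells), with *Pax3* at 0 in humdG, and the 7 red blood cell markers, all present, summed to 5682 and 7082 CPM. Their part in the members' values was not tested. Red blood cell-like cells, a class not known for these 7 channels, served as the measure of background from free RNA. In a pooled class, fewer cells with a transcript and fewer transcripts per cell give the same sum, so shares of cells are given beside the levels.

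**Figure D1:**
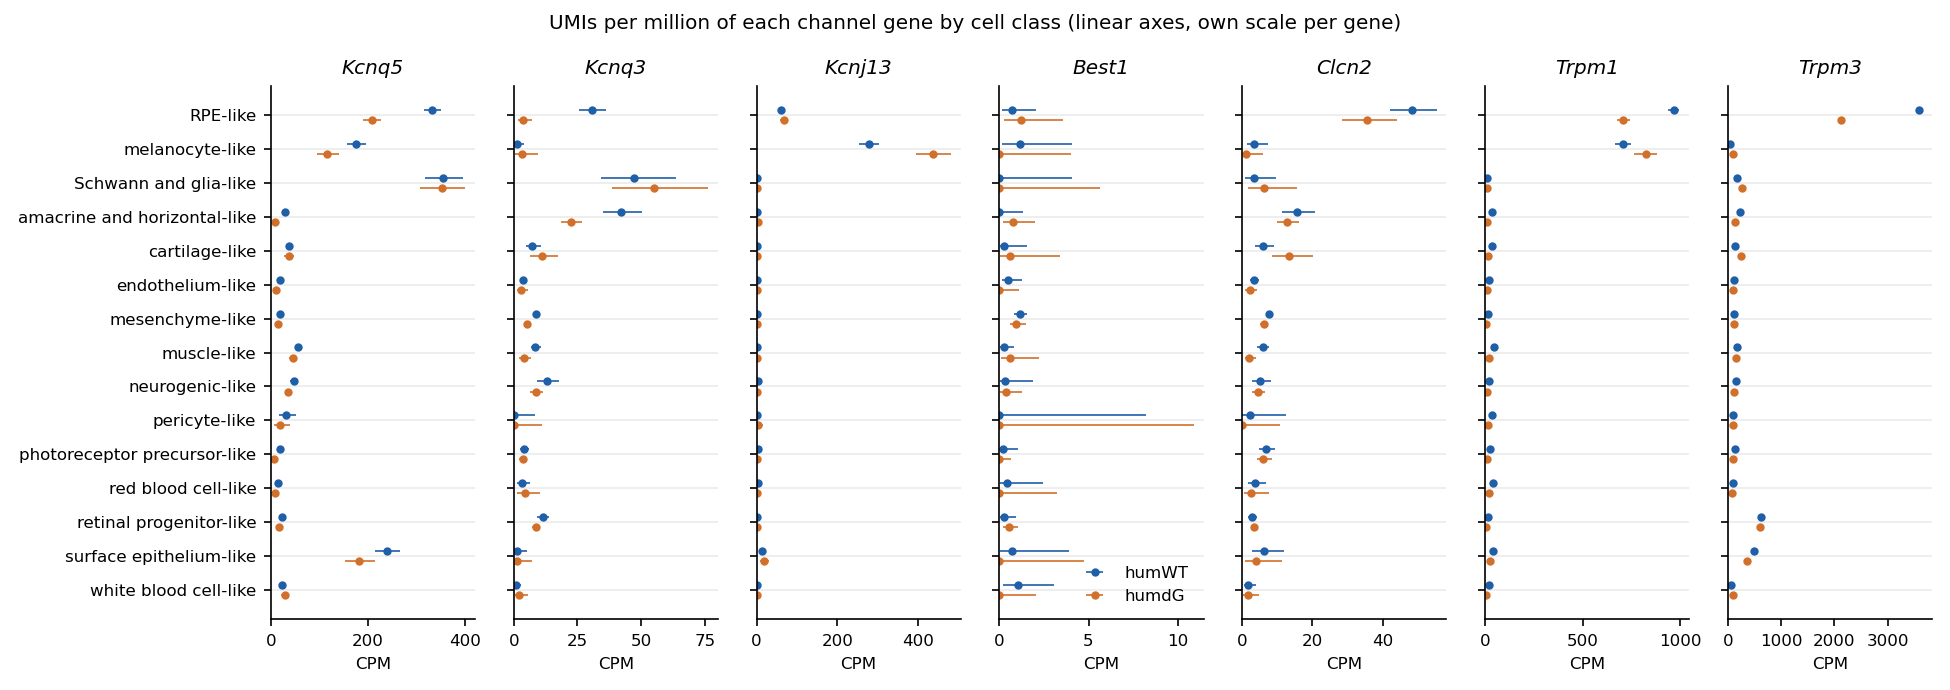
Level of each channel gene in CPM (linear axes, own scale per gene) in the 15 named classes, humWT in blue and humdG in orange; points are class sums scaled to CPM and bars are exact Poisson 95% intervals. *Trpm3*, *Trpm1* and *Clcn2* stood out in RPE-like cells, *Kcnj13* and *Trpm1* in melanocyte-like cells, *Kcnq5* and *Kcnq3* in Schwann and glia-like cells, and *Best1* was at most at 1.23 CPM.

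Of the potassium channels, *Kcnq5* was shared, among the named classes, by pigmented, epithelial and glial cells. In humWT it was at 355 CPM in Schwann and glia-like cells and at 332 CPM (95% interval 315 to 350, 1437 UMIs) in RPE-like cells, and these neighbours in the order did not differ beyond counting error. Surface epithelium-like cells followed at 240 CPM and melanocyte-like cells at 175 CPM, each step larger than the counting error. In humdG the order was the same, with 352 CPM in Schwann and glia-like, 207 CPM (190 to 226, 506 UMIs) in RPE-like, 182 CPM in surface epithelium-like and 116 CPM in melanocyte-like cells. There the RPE-like and Schwann and glia-like levels differed beyond counting error and the RPE-like and surface epithelium-like levels did not. The other 11 named classes lay between 14.4 and 54.9 CPM in humWT and between 6.74 and 45.0 CPM in humdG. Outside the named classes, an unnamed cluster led by neuronal genes was at 208 and 117 CPM. An unnamed cluster led by *Tnmd* was at 129 and 116 CPM. All intervals given for levels, shares and ratios reflect the counting of UMIs or cells alone and leave out how embryos or preparations differ.

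*Kcnq5* UMIs lay in a minority of RPE-like cells. A UMI was found in 164 of 549 humWT cells, or 29.9% (26.1% to 33.9%, exact Clopper-Pearson), and in 58 of 387 humdG cells (15%, 11.6% to 18.9%), while red blood cell-like cells had shares of 5.63% and 2.69%. With every cell thinned to 1000 UMIs, the RPE-like shares were 13% of 549 and 6.02% of 385 cells. The cell with most *Kcnq5* UMIs held 151 in humWT, or 10.5% of the class's sum, and 97 in humdG, or 19.2%. The 10 richest cells held 35.3% of the humWT sum and 66.0% of the humdG sum, so the humdG level rested on few cells.

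*Kcnq3*, which forms channels together with other KCNQ subunits, had its highest level outside the RPE in both libraries. In humWT it was at 47.4 CPM in Schwann and glia-like cells and 42.1 CPM in amacrine and horizontal-like cells, levels that did not differ beyond counting error, and at 30.5 CPM (25.5 to 36.2, 132 UMIs) in RPE-like cells, the third of 15 classes. In humdG, Schwann and glia-like cells were at 55.1 CPM and amacrine and horizontal-like cells at 22.3 CPM, while RPE-like cells were at 3.69 CPM (1.69 to 7.0, 9 UMIs). That humdG level overlapped the 4.37 CPM (1.42 to 10.2) of red blood cell-like cells, so *Kcnq3* was not detectable above the background in humdG RPE-like cells. In humWT the red blood cell-like level was 3.06 CPM (1.23 to 6.31), below the RPE-like interval. Melanocyte-like cells were at 1.13 and 3.25 CPM, 2 and 3 UMIs. Mesenchyme-like and muscle-like cells, whose markers were higher in humWT RPE-like cells, were at 8.66 and 8.49 CPM of *Kcnq3* in humWT. The unnamed cluster led by neuronal genes was at 76.4 CPM in humWT and that led by *Tnmd* at 22.0 CPM. The part of RNA from other cells in the RPE-like *Kcnq3* level was not tested.

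The share of RPE-like cells with a *Kcnq3* UMI was 10.6% in humWT (58 of 549, 8.12% to 13.4%) and 1.81% in humdG (7 of 387, 0.730% to 3.69%). In red blood cell-like cells, at medians of 3992 and 4079 UMIs, it was 1.36% and 1.15%. No humdG RPE-like cell had more than 2 *Kcnq3* UMIs, whereas 1 humWT cell had 14.

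*Kcnj13* was in pigmented cells in both libraries and was higher in melanocyte-like than in RPE-like cells. Melanocyte-like cells were at 278 CPM (254 to 304, 491 UMIs) in humWT and 437 CPM (396 to 482, 404 UMIs) in humdG. RPE-like cells were at 61.3 CPM (54.1 to 69.1, 265 UMIs) and 68.0 CPM (58.1 to 79.2, 166 UMIs), and these genotype intervals overlapped. Surface epithelium-like cells were the third in the order, at 12.6 and 17.9 CPM, and the other 12 classes were at 4.38 CPM or less. A *Kcnj13* UMI was found in 114 of 549 humWT RPE-like cells (20.8%, 17.4% to 24.4%) and in 69 of 387 humdG cells (17.8%, 14.1% to 22.0%), and after thinning to 1000 UMIs the shares were 3.6% and 3.65%. In red blood cell-like cells the unthinned shares were 1.75% and, with 0 of 260 cells, a share of up to 1.15% that a count of 0 allows (3 counts taken as the limit).

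The chloride channels had different patterns. *Clcn2* was highest in RPE-like cells in both libraries, at 48.3 CPM (42.0 to 55.4, 209 UMIs) in humWT and 35.6 CPM (28.5 to 44.0, 87 UMIs) in humdG. The next named class differed beyond counting error in each. It was amacrine and horizontal-like cells at 15.5 CPM in humWT. In humdG it was cartilage-like cells at 13.3 CPM, where the 22 *Clcn2* UMIs lay in 10 cells. The unnamed cluster led by neuronal genes was at 17.7 and 21.7 CPM. Melanocyte-like cells were at 3.40 and 1.08 CPM, within the red blood cell-like range of 3.5 and 2.62 CPM. A *Clcn2* UMI was found in 98 of 549 humWT RPE-like cells (17.9%, 14.7% to 21.3%) and 47 of 387 humdG cells (12.1%, 9.06% to 15.8%), or 2.57% and 1.82% after thinning, and in 1.55% and 1.15% of red blood cell-like cells unthinned.

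*Best1*, the chloride channel mutated in Best vitelliform macular dystrophy, was low in every class, at most 1.23 CPM. RPE-like cells held 3 UMIs in each library, which is 0.694 CPM (0.143 to 2.03) in humWT and 1.23 CPM (0.253 to 3.59) in humdG. Mesenchyme-like cells had most of its UMIs among the classes, 42 in humWT (1.16 CPM, 0.835 to 1.57) and 20 in humdG (0.959 CPM, 0.586 to 1.48), above the floor of 3 UMIs, and no other class had more than 7. They were the highest class in humWT and RPE-like cells in humdG, but no pair of neighbours in either order differed beyond counting error. No fold is given for *Best1*, because RPE-like cells of both libraries are at the 3 UMIs taken as the floor. Its upstream neighbour *Myrf*, 207 kb away, was read in RPE-like cells with 1227 and 486 UMIs.

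Among the named classes, *Trpm1* was the marker-like member of both pigmented classes. In humWT it was at 966 CPM (937 to 996, 4176 UMIs) in RPE-like and 707 CPM (668 to 747, 1248 UMIs) in melanocyte-like cells. In humdG the order turned, with 822 CPM (765 to 883, 760 UMIs) in melanocyte-like and 707 CPM (674 to 741, 1725 UMIs) in RPE-like cells. The difference between these classes was larger than the counting error in each library. The other 13 named classes were at most at 45.7 CPM in humWT and 23.0 CPM in humdG. Red blood cell-like cells were at 41.2 and 19.2 CPM, so most named classes lay near or below this background in each library. Outside the named classes, the unnamed cluster led by neuronal genes was at 105.5 and 41.6 CPM. The largest unnamed cluster was at 84.1 and 41.96 CPM and held 9.62% and 15.2% of all *Trpm1* UMIs. The intervals of both lay above those of red blood cell-like cells in each library. The remaining unnamed clusters were at most at 48.8 CPM in humWT and below the red blood cell-like level in humdG.

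*Trpm3* was the member with the clearest order over the named classes. RPE-like cells were at 3592 CPM (3535 to 3649, 15529 UMIs) in humWT and 2128 CPM (2070 to 2187, 5194 UMIs) in humdG. Of the named classes, retinal progenitor-like cells came next at 615 and 597 CPM. Surface epithelium-like cells followed at 494 and 366 CPM, each step larger than the counting error. Between RPE-like and retinal progenitor-like cells lay the unnamed cluster led by neuronal genes, at 1491 and 1384 CPM. An unnamed cluster led by *Tafa1* and *Cntn6*, at 978 and 849 CPM, also lay there. Melanocyte-like cells, at 45.3 CPM in humWT and 88.7 CPM in humdG, were below or near the 98.9 and 83.0 CPM of red blood cell-like cells. The paired melastatin channels thus had different patterns in pigmented cells, with *Trpm1* above background in both classes, and *Trpm3* clearly above it in RPE-like cells and at or near it in melanocyte-like cells.

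Both TRP channels were found in most RPE-like cells. A *Trpm1* UMI was in 413 of 549 humWT cells (75.2%, 71.4% to 78.8%) and in 237 of 387 humdG cells (61.2%, 56.2% to 66.1%), while the red blood cell-like shares were 16.1% and 5.77%. A *Trpm3* UMI was also in 413 humWT cells and in 249 humdG cells (64.3%, 59.3% to 69.1%), against 30.9% and 22.3%. Thinned to 1000 UMIs, *Trpm1* was in 43.7% and 33.4% and *Trpm3* in 50.9% and 39.9% of RPE-like cells. The humWT cell with most *Trpm3* UMIs held 1309, or 8.43% of the sum, and the humdG cell 547, or 10.5%.

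The RPE-like class held very different parts of each member's transcripts. Of all UMIs in the cells kept, it had 45.3% of *Trpm1* in humWT and 42.0% in humdG. The parts were 32.1% and 11.5% for *Trpm3*, 26.2% and 21.7% for *Kcnj13*, 21.7% and 11.7% for *Clcn2* and 21.4% and 13.5% for *Kcnq5*. For *Kcnq3* they were 8.74% and 0.777%. The unnamed cluster led by neuronal genes (*Anks1b*, *Nrxn3* and *Rbfox1* among its leading genes) had 251 and 364 cells and met no class's marker rule. It held 16% and 35.5% of the *Kcnq3* UMIs, at 76.4 and 56.0 CPM. Of the *Trpm3* UMIs it held 9.77% and 22.5%, at 1491 and 1384 CPM. Its parts were 9.82% and 22.9% for *Kcnq5* and 5.83% and 21.3% for *Clcn2*. The unnamed cluster led by *Tafa1* and *Cntn6* held 15.9% and 25.4% of the *Trpm3* UMIs, in humdG a larger part than RPE-like cells. Unnamed clusters held 40.0% and 61.2% of all cells kept.

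Few cells held UMIs of all members. All 7 were found together in 2 of 549 humWT RPE-like cells and 0 of 387 humdG cells, and none of the 7 in 45 and 75 cells. The number of members seen followed the depth of the cell, with a median of 2727 UMIs in the humWT cells with none and 34596 UMIs in those with 6. In cells with more than 10000 UMIs, 109 in humWT at a median of 19310 UMIs and 68 in humdG at a median of 18601, depth was similar between the libraries. All of these cells had *Trpm1* and *Trpm3*. *Kcnj13* was in 64.2% (54.5% to 73.2%) of the humWT and 66.2% (53.7% to 77.2%) of the humdG cells, and *Clcn2* in 58.7% (48.9% to 68.1%) and 48.5% (36.2% to 61.0%). *Kcnq5* was in 61.5% (51.7% to 70.6%) and 48.5% (36.2% to 61.0%), intervals that overlapped, but in cells of 5000 to 10000 UMIs it was in 41.3% (31.8% to 51.4%) of 104 humWT and 13.9% (4.67% to 29.5%) of 36 humdG cells, intervals that did not. Above 10000 UMIs, *Kcnq3* was in 27.5% (19.4% to 36.9%) and 4.41% (0.919% to 12.4%), intervals that did not overlap. From 5000 to 10000 UMIs it was in 14.4% (8.30% to 22.7%) and 2.78% (0.0703% to 14.5%), intervals that did. The smaller of the RPE-like clusters described below had 74 humWT and 15 humdG cells, at medians of 6499.5 and 4669 UMIs. A *Kcnq5* UMI was in 78.4% and 60% of them and a *Kcnq3* UMI in 24.3% and 13.3%. The part of this cluster in the shares by depth was not tested.

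**Figure D2:**
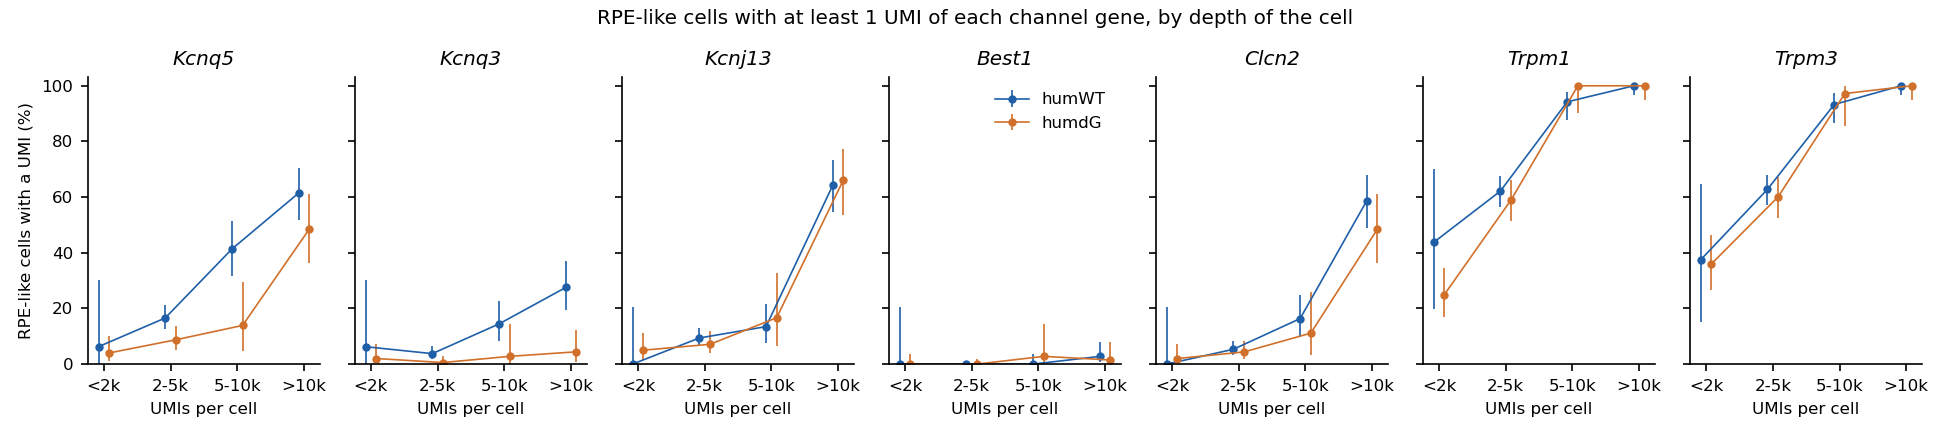
Share of RPE-like cells with at least 1 UMI of each channel gene (percent, vertical axis) in 4 ranges of UMIs per cell (horizontal axis), humWT in blue and humdG in orange, with exact Clopper-Pearson 95% intervals. For the genes other than *Best1* the share was highest, or equal highest, in the deepest range, where the libraries were apart for *Kcnq3*, at 27.5% and 4.41%.

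Between genotypes, *Kcnq3* was the member with the lowest ratio in RPE-like cells. The log2 ratio of humdG to humWT CPM was -3.05 (-4.21 to -2.08) for *Kcnq3*, from 132 to 9 UMIs. It was -0.76 (-0.80 to -0.71) for *Trpm3*, -0.68 (-0.83 to -0.53) for *Kcnq5*, -0.45 (-0.53 to -0.37) for *Trpm1* and -0.44 (-0.82 to -0.07) for *Clcn2*. For *Kcnj13* it was 0.15 (-0.14 to 0.44), an interval that includes no difference and goes down to -0.14 and up to 0.44. *Myrf* itself was at -0.51 (-0.67 to -0.36). With 1 library per genotype there is no replicate check of these ratios, and genotype, pool and preparation cannot be told apart.

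Read against all genes, 1 of the 6 members with at least 20 UMIs was lower by 2 times or more, against 5.97% of the 12621 genes with that many UMIs in RPE-like cells. That member, *Kcnq3*, was chosen with this ratio known, so nothing is read from the count. None of the 6 was higher by 2 times or more, against 2.47% of genes. *Kcnq3*, at -3.05, was thus the member inside the limit of 2 times and *Trpm3*, at -0.76, the nearest outside it. The members' median log2 ratio was -0.57 beside -0.06 over all genes, and 5 of the 6 were below 0 beside 7081 of the 12621.

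The RPE-like class was made of 2 clusters that differed in the members. The larger held 475 humWT and 372 humdG cells and the smaller 74 and 15. The smaller had 10 RPE markers raised, but no RPE marker was among its 10 leading genes. *Kcnq5* was at 204 and 173 CPM in the larger and at 1306 and 1184 CPM in the smaller. *Trpm3* was at 2691 and 1932 CPM in the larger and at 10439 and 7707 CPM in the smaller, where every cell had a UMI of it. *Kcnq3* was at 21.2 CPM in the larger and 101.5 CPM in the smaller cluster of humWT, with 7 and 2 UMIs in humdG. The smaller cluster thus held 656 of the 1437 *Kcnq5* UMIs of humWT RPE-like cells but 98 of the 506 of humdG.

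Because the smaller cluster was a larger part of the humWT class, ratios within the larger cluster differed from those of the whole class. *Kcnq5* was at a log2 ratio of -0.24 (-0.42 to -0.07) there and *Trpm3* at -0.48 (-0.53 to -0.43). *Kcnq3* remained low, at -2.84 (-4.20 to -1.73), 81 against 7 UMIs. *Trpm1* was at -0.51 (-0.59 to -0.43), *Clcn2* at -0.55 (-0.94 to -0.17) and *Kcnj13* at 0.07 (-0.22 to 0.36). In this cluster 1 of 6 members was lower by 2 times or more, against 4.82% of 12275 genes, and 0 were higher, against 2.7%. In the smaller cluster *Kcnq5* was at -0.14 (-0.46 to 0.17), *Trpm3* at -0.44 (-0.56 to -0.32) and *Trpm1* at 0.17 (-0.24 to 0.56).

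The clusters also differed in ways not particular to channels. The smaller had 2.70% and 1.72% mitochondrial UMIs against 5.25% and 4.68% in the larger, and *Malat1*, a nuclear RNA, at 20832 and 36350 CPM against 14135 and 13301 CPM. Its *Ttr* was at 185 and 230 CPM against 4405 and 3004 CPM. Over all genes, the ratio of the smaller to the larger cluster went with the span of the gene. In humWT the median log2 ratio was -1.46 over the 1312 genes under 10 kb, -0.64 from 10 to 30 kb, 0.56 from 30 to 100 kb, 1.36 from 100 to 300 kb and 1.93 over the 336 genes above 300 kb. In humWT the shortest members were lower and the 3 longest higher in the smaller cluster, though not in the order of their spans. *Kcnj13* was 0.361 times (0.184 to 0.641) and *Clcn2* 0.546 times (0.293 to 0.938) as high there, and *Kcnq3* 4.79 times (3.31 to 6.88), *Trpm3* 3.88 times (3.75 to 4.01) and *Kcnq5* 6.39 times (5.75 to 7.1). *Trpm1*, at 116 kb, was below its span class, at 0.674 times (0.602 to 0.753). In humdG, with 15 cells in the smaller cluster, *Kcnq5* was 6.84 times (5.43 to 8.55), *Trpm3* 3.99 times (3.67 to 4.33) and *Kcnj13* 0.347 times (0.0417 to 1.28) as high. The humdG ratios of *Trpm1*, 1.08 (0.826 to 1.39), and *Clcn2*, 1.74 (0.549 to 4.22), lay on the other side of 1 from those of humWT, with intervals that include 1. The part of gene span, nuclear RNA or cell state in these differences was not tested, and whether reads in introns were counted is not given in the sources used here.

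**Figure D3:**
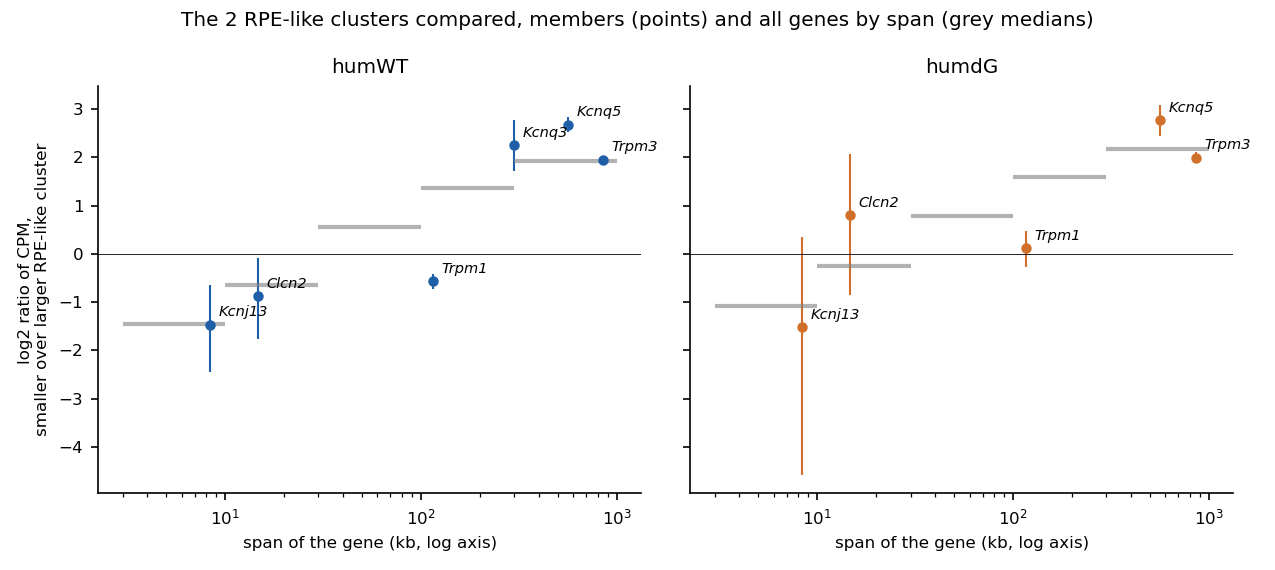
Log2 ratio of CPM in the smaller over the larger RPE-like cluster (vertical axis) against the span of the gene in kb (log axis), humWT at left and humdG at right; points are channel genes with exact 95% intervals and grey bars are medians over all genes in a span range. *Kcnq5* and *Trpm3* were above 1.9 on the log2 scale in both libraries, *Kcnj13* was below 0, and *Trpm1* lay under the grey bar of its range.

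The low *Kcnq3* of humdG held within the RPE-like clusters and not under a gate on markers alone. The planned gate took cells with a UMI of at least 3 of 7 RPE markers and at least 3 of 6 pigment markers, no *Sox10* or *Pax3* UMI and under 0.5% collagen UMIs. It kept 91 humWT and 87 humdG cells, with 19 and 44 *Kcnq3* UMIs, a log2 ratio of 0.59 (-0.22 to 1.45). Because RPE-like cells themselves held *Sox10* UMIs, at 80.3 and 60.6 CPM, the gate was also run without that rule, an alternative added after seeing the data. It then kept 224 and 146 cells with 100 and 84 *Kcnq3* UMIs, a log2 ratio of -0.21 (-0.64 to 0.22).

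These gate cells were then separated by whether they lay in the RPE-like clusters. Inside were 206 humWT and 127 humdG cells with 75 and 5 *Kcnq3* UMIs, a log2 ratio of -3.20 (-4.86 to -1.91). Outside were 18 and 19 cells with 25 and 79 UMIs, a log2 ratio of 0.26 (-0.41 to 0.97). Of the outside cells, 9 of 18 in humWT and 13 of 19 in humdG lay in the unnamed cluster led by neuronal genes, at medians of 23123 and 114355 UMIs and up to 45036 and 211810 UMIs. The others were spread over further clusters, and in humWT a pair of them had 118883 and 174760 UMIs. A barcode of such depth can hold more than 1 cell, and whether these do was not tested. *Kcnq3* was thus low in humdG in the cells that also clustered as RPE. Of the 84 humdG UMIs under the gate without the *Sox10* rule, 79 came from 13 cells, all in the unnamed cluster led by neuronal genes.

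**Figure D4:**
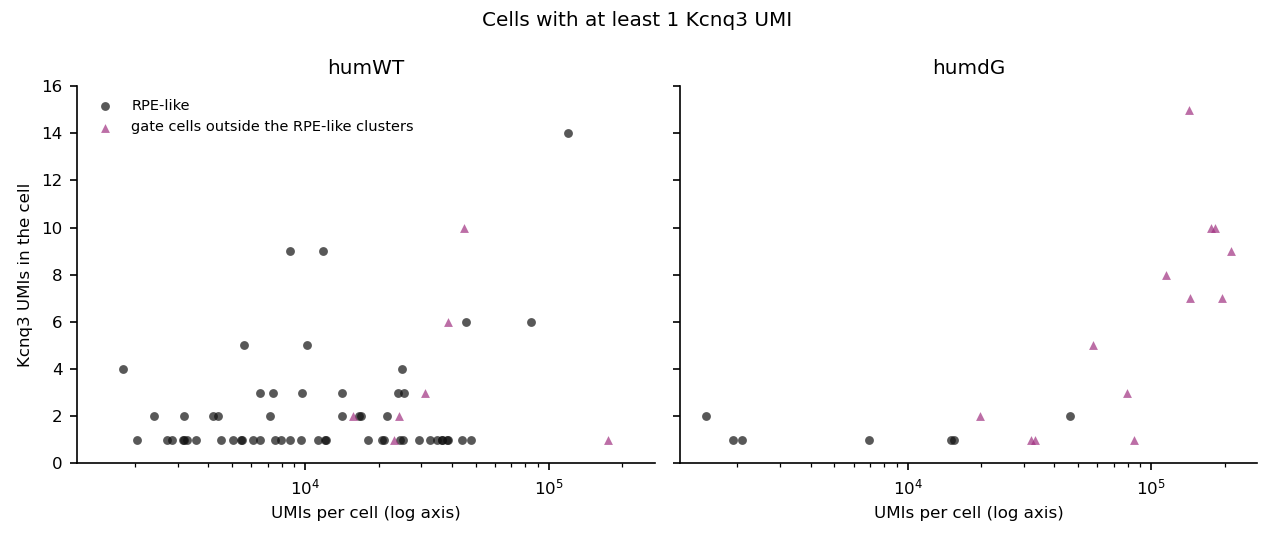
*Kcnq3* UMIs per cell (vertical axis) against all UMIs of the cell (log axis) for cells with at least 1 *Kcnq3* UMI, humWT at left and humdG at right; black circles are RPE-like cells and purple triangles are cells that pass the marker gate outside the RPE-like clusters. The 7 humdG RPE-like cells hold 1 or 2 UMIs each, and the humdG triangle with most *Kcnq3* holds 15.

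The other members moved less between these definitions, though not all kept their size. *Trpm1* was at -0.45 in the whole RPE-like class and -0.53 (-0.62 to -0.43) in the gate cells inside it. Over all gate cells without the *Sox10* rule it was at -1.12 (-1.21 to -1.03), past 2 times. Of all UMIs of those gate cells, the cells outside the clusters held 599018 of 3390406 in humWT and 1584241 of 3291674 in humdG. *Trpm1* was at 132 and 68.2 CPM in these outside cells, and their part in the ratio was not tested. *Clcn2* was at 0.57 (-0.20 to 1.39) under the planned gate, 21 against 48 UMIs, and at -0.26 (-0.66 to 0.14) in the gate cells inside the clusters. *Kcnj13* was at -0.58 under the planned gate, at -0.42 (-0.73 to -0.10) without the *Sox10* rule and at 0.26 (-0.05 to 0.58) inside the clusters. *Trpm3* stayed between -0.86 and -0.48 and *Kcnq5* between -0.89 and -0.21 over the 15 alternatives tried.

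**Figure D5:**
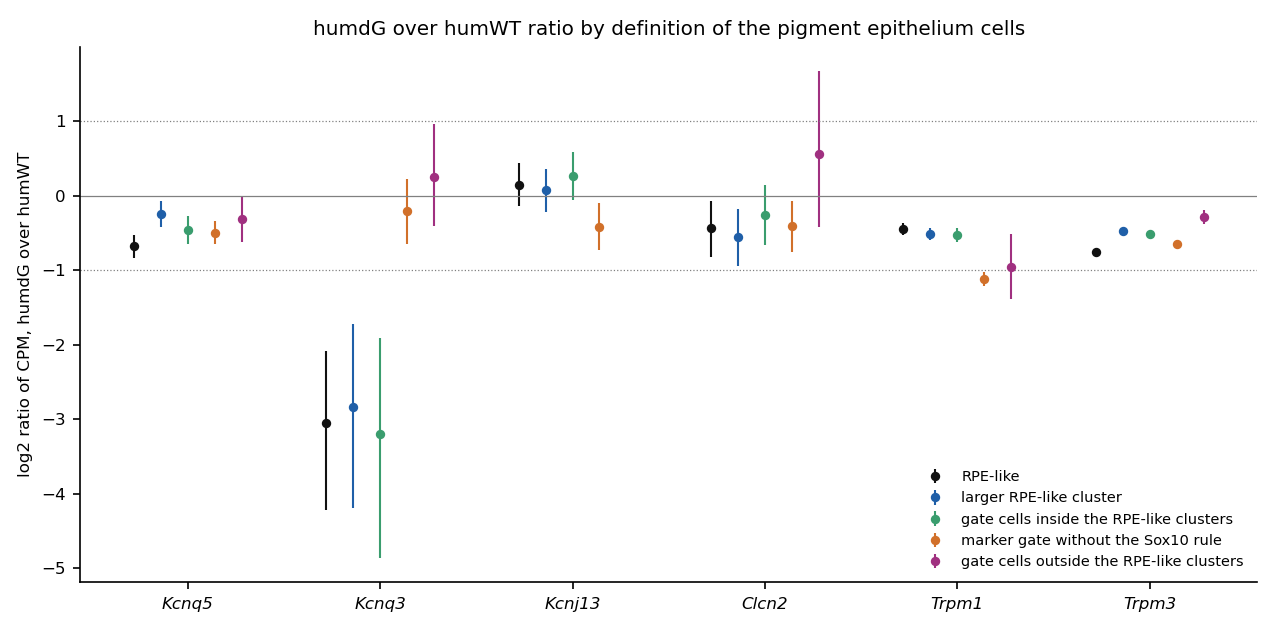
Log2 ratio of humdG to humWT CPM (vertical axis) for 6 channel genes under 5 definitions of pigment epithelium cells, with exact 95% intervals; dotted lines mark 2 times and the grey line no difference. *Kcnq3* was between -3.20 and -2.84 in the 3 definitions inside the RPE-like clusters and near 0 in the 2 others, and *Kcnj13* has too few UMIs to be drawn outside the clusters.

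In melanocyte-like cells the ratios of the shared members were as follows. *Trpm1* was at a log2 ratio of 0.22 (0.09 to 0.35) there and at -0.45 in RPE-like cells. *Kcnj13* was at 0.65 (0.46 to 0.85) against 0.15. *Kcnq5* was at similar ratios in both, -0.60 (-0.93 to -0.27) and -0.68. The difference between classes was not tested.

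The members were then set within lists of channels and transporters, chosen with earlier results of these data known. The potassium, chloride and TRP lists hold the members themselves, so these enter the counts and medians, and *Kcnq3* is among the lower potassium channels. Over all 12621 genes with at least 20 UMIs, 5.97% were lower and 2.47% higher by 2 times or more. The list medians were taken with 0.5 UMIs added to the counts, unlike the ratios of single genes, and can differ slightly from medians of those. Of 24 potassium channels and subunits, 13 reached 20 UMIs in the RPE-like class, 2 of them lower and 2 higher by 2 times or more, with a median log2 ratio of -0.14. *Kcna2*, a delayed rectifier, was at 28.2 and 13.5 CPM, a log2 ratio of -1.06 (-1.66 to -0.50). *Kcne2*, an accessory subunit of KCNQ and other channels, went the other way, at 8.33 and 29.1 CPM from 36 and 71 UMIs, for a log2 ratio of 1.80 (1.21 to 2.43), and had no UMI in red blood cell-like cells.

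Of 22 chloride and anion channels and subunits, 16 had at least 20 UMIs, 1 of them lower and 0 higher by 2 times or more, with a median of -0.33. The chloride list held *Clic6*, an intracellular chloride channel protein, at 288 and 224 CPM, *Clcn3*, an endosomal exchanger, at 124 and 113 CPM, and *Ano6*, a scramblase and channel, at 87.4 and 51.6 CPM. Of 18 TRP channels, 10 had at least 20 UMIs, 2 of them lower and 0 higher, with a median of -0.67, and *Trpm7*, a channel fused to a kinase, was at 125 and 78.2 CPM, a log2 ratio of -0.67 (-0.92 to -0.43).

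Calcium channels, some of which are known to interact with bestrophin-1 in the RPE, had 14 of 16 with at least 20 UMIs, 0 lower and 1 higher by 2 times or more, and a median of -0.41. *Cacna1c*, the pore of an L-type channel, was at 283 and 171 CPM, a log2 ratio of -0.72 (-0.89 to -0.56), and at -0.48 in the larger cluster. *Cacnb2*, an accessory subunit, was at -0.72 in the class and 0.02 in the larger cluster. *Cacna2d1* was at 69.2 and 47.5 CPM, not far above the 44.2 and 31.5 CPM of red blood cell-like cells.

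The pumps, cotransporters and exchangers had 25 of 27 genes with at least 20 UMIs, 2 lower and 0 higher, with a median of -0.08, near that of all genes. *Slc16a8*, the lactate carrier MCT3 of the basolateral RPE membrane, was at 777 and 716 CPM. *Slc24a5*, an exchanger of pigmented organelles, was at 647 and 612 CPM. *Slc4a5*, a sodium bicarbonate cotransporter, was at 729 and 435 CPM, a log2 ratio of -0.74 (-0.85 to -0.64), and at -0.71 in the larger cluster.

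The likeness of patterns was measured as Pearson's r of log2(CPM + 10) over 30 points, the 15 named classes in each library, among 15886 genes. The points share libraries, depth and free RNA, and r is a description. Among the members, *Trpm1* and *Kcnj13* were most alike (r = 0.90), then *Clcn2* and *Trpm3* (r = 0.75). The genes most like *Trpm1* were *Tyr* (0.99), *Oca2* (0.98) and *Pmel* (0.98), and those most like *Kcnj13* were *Gsta1* (0.98), *Trim63* (0.97) and *Slc45a2* (0.96), of which *Tyr*, *Oca2*, *Pmel* and *Slc45a2* are pigment genes. *Clcn2* was nearest to *Tmem108* (0.96), *Slc1a1* (0.92) and *Asic2* (0.89), and *Trpm3* to *Gm14133* (0.87), *Me3* (0.86) and *Slc38a3* (0.86). *Kcnq5* was nearest to *Arhgef16* (0.91), *Plpp2* (0.87) and *Fstl3* (0.84), and *Kcnq3* to *Luzp2* (0.85), *Sh3gl3* (0.84) and *Sorbs2os* (0.83). *Best1* had no gene above 0.67, which *Thbs4* reached, followed by *Adamts6* (0.61) and *Gm14582* (0.60).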

How the data were processed

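Single-cell RNA was counted in 2 libraries, 1 for each genotype. The authors ran Cell Ranger 7.1.0 to align and count the reads (matrix header; build mm10 in the submitters' processing notes, which also name Seurat 4.1.1), and deposited UMI counts for each gene in each barcode called as a cell, with no normalization. Whether reads in introns were counted is not given in the sources used here.

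Kept barcodes had more than 500 genes and less than 15% of UMIs from mitochondrial genes. Scrublet (scanpy 1.11.5) marked 1 and 0 cells at its automatic threshold and had therefore not worked, so the top 5% of each library by score was removed. The libraries were integrated over 2000 variable genes and 20 dimensions and clustered at a resolution of 0.5 (Seurat 5.3.0, R 4.3.3), which gave 24 clusters. A cluster was named when at least 3 markers of a class reached 2 times their level in the remaining cells, with 10 CPM added to both, and were found in 10% of its cells, with 1 of them among its 20 leading genes. Clusters with more than 2 genes linked to ribosomal RNA among the 10 leading genes stayed unnamed, a rule set after seeing the clusters. It applied to the largest cluster, of 4156 humWT and 8013 humdG cells, which had 3 muscle markers raised. In all, 5 clusters were unnamed.

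Levels are class sums of UMIs scaled to CPM. Their 95% intervals are exact Poisson, those of shares exact Clopper-Pearson and those of ratios exact conditional binomial (Python 3.11.15 with scipy 1.17.1 and numpy 2.4.6). Only the ratio intervals were checked on simulated data, with independent Poisson counts for each gene. That check cannot show whether the intervals are wide enough where UMIs gather in few cells. A gene counted as lower or higher past 2 times with at least 20 UMIs over both libraries. No test between genotypes was possible with 1 library each. Genes named are the members, *Myrf*, genes of each list past 2 times with at least 100 UMIs, the 3 of each list with most UMIs, and the 3 genes most like each member among those with at least 200 UMIs. A gene that this rule would name is not reported here. The members and lists were chosen with earlier results of these data known. Gene positions were matched by identifier to the GENCODE annotation of GRCm38 (32158 of 32285 found), and promoter and microRNA sequences were taken from RefSeq. Alternatives are given in the closing section.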

Additional observations from a re-analysis of the deposited data

Results flagged for a closer look

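In 6 of 58 pairs of a member and another named class, the log2 ratio of humdG to humWT lay above 0 beyond its counting interval where that in RPE-like cells lay below 0. The difference from RPE-like cells was not tested for any of them, since each genotype is 1 library. The rule was not run over all genes, so no share stands beside this count and nothing is read from it. *Trpm3*, at -0.76 in RPE-like cells, was at 1.03 (0.83 to 1.22) in cartilage-like cells, from 125 to 255 CPM, and at 0.97 (0.51 to 1.43) in melanocyte-like cells. The cartilage-like level of humdG rested on few cells, since 10 of 115 cells held 91.4% of the 420 *Trpm3* UMIs, against 12.9% in the 10 richest of 1188 humWT cells, and thinned to 1000 UMIs a *Trpm3* UMI was in 10.3% of humWT and 13.7% of humdG cells. It was at 0.82 (0.51 to 1.13) in white blood cell-like cells, from 57.7 to 102 CPM, and at 0.62 (0.30 to 0.94) in Schwann and glia-like cells, from 175 to 269 CPM. *Trpm1*, at -0.45 in RPE-like cells, was at 0.22 (0.09 to 0.35) in melanocyte-like cells. There the 10 richest cells held 36.8% of its humWT and 59.2% of its humdG UMIs, and the thinned shares of cells were 40.5% and 41.1%. *Clcn2*, at -0.44 in RPE-like cells, was at 1.19 (0.26 to 2.13) in cartilage-like cells, from 21 and 22 UMIs, the latter all in 10 cells. The *Trpm3* levels in melanocyte-like and white blood cell-like cells were near the 98.9 and 83.0 CPM of red blood cell-like cells.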

How the results depend on the processing

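No paired analysis was possible because each genotype is 1 library. Under the planned marker gate, 0 members were lower by 2 times or more, against 1. The members' median log2 ratio was -0.38, against -0.57. The direction turned for *Kcnq3* (0.59) and *Clcn2* (0.57). *Kcnj13* also changed sign, to -0.58, from 0.15 with an interval that included no difference. That gate kept 91 and 87 cells, partly outside the RPE-like clusters. Without the *Sox10* rule, with cells again partly outside these clusters, the count was again 1, but the gene was *Trpm1* (-1.12) and not *Kcnq3* (-0.21). With no minimum of UMIs, the median over all 7 members was -0.45, since *Best1* then entered. Over 15 alternatives, the log2 ratio ranged from -0.89 to -0.21 for *Kcnq5*, -4.48 to 0.59 for *Kcnq3*, -0.58 to 0.27 for *Kcnj13*, -0.56 to 0.57 for *Clcn2*, -1.12 to -0.39 for *Trpm1* and -0.86 to -0.48 for *Trpm3*. The lowest *Kcnq3* value came from subtracting the red blood cell-like level, which left humdG at the limit of 3 UMIs. *Kcnq3* was past 2 times in 13 of the 15. Leaving out the cell with most UMIs of a member in each library moved *Kcnq5* to -0.89 and *Trpm3* to -0.86. Among 78 list genes, members included, 7 were lower and 3 higher by 2 times or more (8.97% and 3.85%, beside 5.97% and 2.47% of all genes). With no minimum these were 18 and 8 of 104 (all genes 20.4% and 8.98%), with at least 100 UMIs 2 and 1 of 52 (3.01% and 0.99%) and with the background subtracted 10 and 9 of 78 (10.0% and 8.41%). Under the marker gate they were 1 and 15 of 71 (2.28% and 14.2%), without the *Sox10* rule 6 and 22 of 81 (3.78% and 18%), and in gate cells inside the clusters 5 and 1 of 64 (4.7% and 1.89%). The cause of these shifts was not tested. Under all 4 other clusterings the class with the highest level stayed RPE-like for 3 of 7 members in each library, *Clcn2*, *Trpm1* and *Trpm3* in humWT and *Clcn2*, *Trpm3* and *Best1* (3 UMIs in the clustering reported) in humdG, while for *Kcnq3* in humWT it became amacrine and horizontal-like in all 4. Merged without integration, the smaller RPE-like cluster met no class's marker rule.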
